A study of Mus musculus with 6 samples.

Results

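Collagens are the main structural proteins of the extracellular matrix, and 44 collagen genes of the 22180 genes with a probe set of their own were examined here in mouse liver. A gene was taken as a member where the annotated symbol of its probe set began with Col followed by a chain type number, the letter a and a chain number, and the probe set of highest mean was read where a gene had more than 1. The rule found 47 probe sets with 1 symbol for these 44 genes, and 1 further probe set that a collagen shares with other symbols was left out. Of 45 collagen genes listed by class, Col21a1 was not measured by a probe set of its own. The livers came from 3 Balb/cBy males, the substrain that the series calls KD, and from 3 Balb/c males, which it calls wild type. Every mouse was 20 weeks old and had been fed, since 8 weeks of age, a high-fat diet with 58% of its energy as fat, so the diet is shared by the groups and its effect is not part of the comparison. RNA of each liver was measured on 1 Affymetrix whole-transcript array, and all levels below are RMA values on the log2 scale, where a difference of 1 is a doubling.

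A collagen chain is folded into a triple helix with its partner chains in the endoplasmic reticulum, secreted, trimmed by proteases and cross-linked outside the cell. Fibrillar collagens form the cables of scar tissue, basement membrane collagens form sheets under epithelium and endothelium, fibril-associated collagens (FACITs) decorate the cables, and type VI collagen forms beaded filaments between matrix and cell surface. In liver the main source of fibrillar collagen is the hepatic stellate cell, which becomes a myofibroblast in injury and makes the matrix of fibrosis.

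The 6 arrays were alike as a whole, with Pearson correlations across genes of 0.977 to 0.990 within groups and 0.977 to 0.991 between them. Albumin, a hepatocyte product, lay between 14.16 and 14.18 in Balb/cBy livers and between 14.17 and 14.22 in Balb/c livers, which fits the labelled tissue. The substrain is known to carry a deletion in Acads, the short-chain acyl-CoA dehydrogenase. Acads stood at 10.60, 10.79 and 10.93 in the Balb/cBy livers, against 11.53, 11.46 and 11.28 in the Balb/c livers, a difference of -0.65 ± 0.12 (SE) with an adjusted p of 0.319 in limma. The groups did not overlap. The label KD names no gene, and the place of the Acads probes within or outside the deleted stretch is unknown here.

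No collagen gene passed the test of a difference between the substrains. In limma, with p-values adjusted by Benjamini-Hochberg across the 23521 tested probe sets, 0 of the 44 genes passed an adjusted p of 0.05, and 0 of all probe sets did (0%). At an unadjusted p under 0.05 the count was again 0 of 44 collagens, against 3.82% of all probe sets, of which 2.64% were higher and 1.18% lower in Balb/cBy. The smallest unadjusted collagen p in the limma fit was 0.0562, for Col6a1, and every collagen had an adjusted p of 0.999. Differences (Balb/cBy minus Balb/c) ran from -0.17 for Col9a3 to 0.34 for Col14a1, with 18 genes above 0, 26 below 0 and a median of -0.03, against a median of -0.003 and 48.99% above 0 over all tested probe sets.

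The test missing its threshold does not by itself show that the levels were equal, so the interval of each difference is of use. For 43 of the 44 collagen genes the 95% interval lay inside a 1.5-fold change in either direction, which was so for 88.7% of all genes. The exception was Col14a1, whose upper bound was 1.71-fold. These intervals are for 1 gene at a time and are not widened for the number of genes. The median residual SD of the collagens was 0.10, against 0.14 over all tested probe sets. The plot of the difference of each collagen gene shows these intervals by class.

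**Figure D1:**
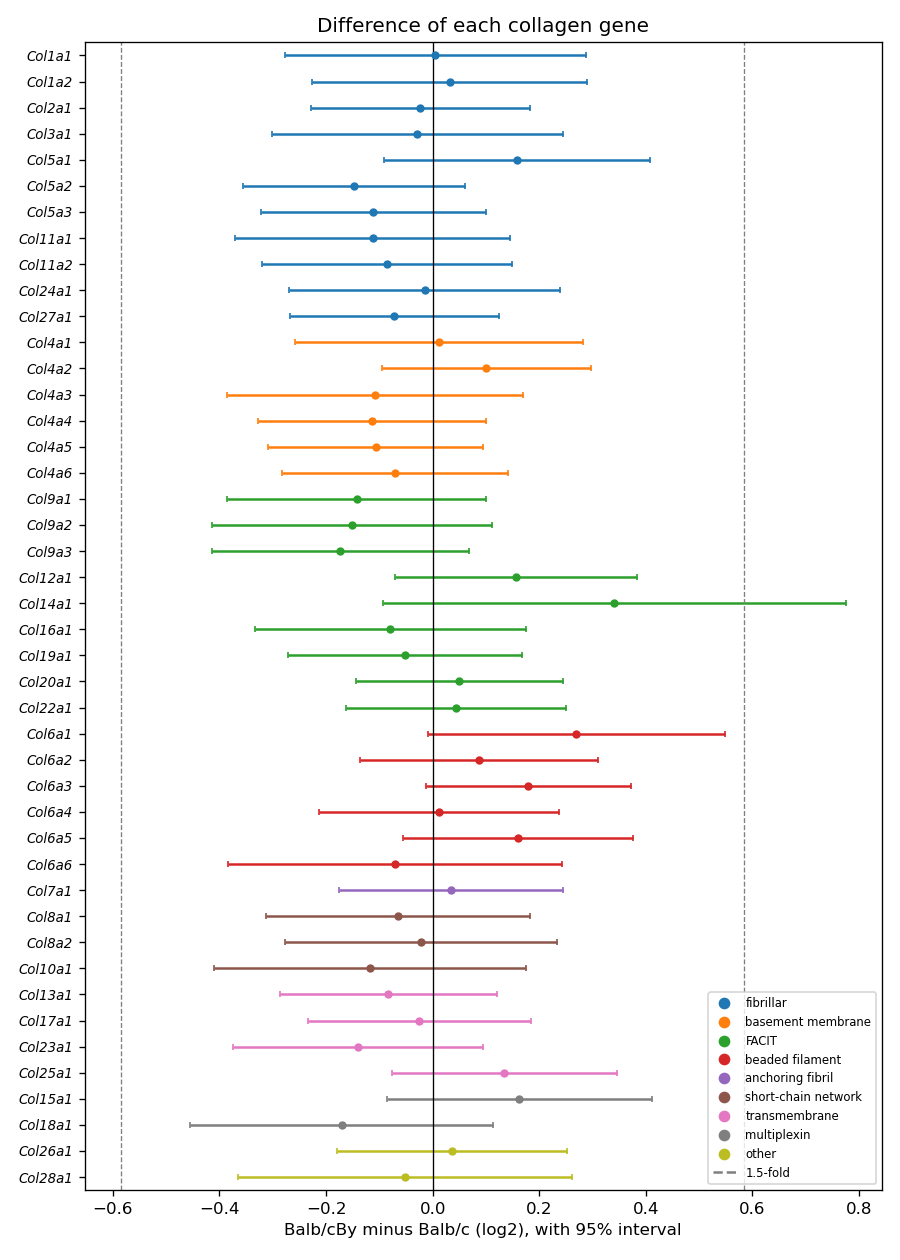
Difference of each of the 44 collagen genes, Balb/cBy minus Balb/c, in log2 units on the horizontal axis, with genes on the vertical axis grouped by class. Points are limma estimates from 3 arrays per substrain and bars are 95% intervals. All 44 bars include 0, and the point farthest from 0 is Col14a1 at 0.34.

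In 6 genes every value of one substrain lay beyond every value of the other. Col6a1, Col6a3, Col4a2 and Col25a1 did so with the higher values in Balb/cBy, which is 9.09% of the collagens against 4.42% of all tested probe sets. Col5a2 and Col9a3 did so with the lower values in Balb/cBy, which is 4.55% against 3.53%. The lower share lay near its background, and the higher one rested on 4 genes, of which Col6a1 was parted by 0.001.

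Fibrillar collagens, the chains of the load-bearing cables, held no gene that passed the test. Of 11 genes, 3 had a difference above 0 and 8 below 0, with a median of -0.03. Col1a1, which encodes the alpha-1 chain of type I collagen, stood at 9.09, 8.82 and 9.06 in Balb/cBy livers, against 9.09, 9.07 and 8.79 in Balb/c livers. Each group held 1 lower array and a pair of nearly equal ones, and the ranges coincided. The difference was 0.01 ± 0.12 (SE), and its 95% interval ran from 0.82-fold to 1.22-fold.

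Col1a2, the partner chain of Col1a1 in the type I helix, measured 8.67, 8.89 and 8.80 in Balb/cBy livers and 8.84, 8.85 and 8.58 in Balb/c livers. Its difference was 0.03 ± 0.11, and a second, dimmer probe set of the gene gave 0.08 ± 0.11. Col3a1, the chain of type III collagen that is laid down beside type I, measured 8.66, 8.88 and 8.96 in Balb/cBy livers and 8.97, 8.91 and 8.70 in Balb/c livers. Its difference was -0.03 ± 0.12, so these 3 chains of scar matrix had differences between -0.03 and 0.03, each with overlapping groups. The plot of liver matrix collagens by array shows these values together with those of types IV, V, VI, XIV, XV and XVIII.

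Type V collagen, which sets the width of type I fibrils, gave opposite signs in its chains. Col5a1 stood at 8.53, 8.72 and 8.38 in Balb/cBy livers, against 8.38, 8.43 and 8.36 in Balb/c livers, a difference of 0.16 ± 0.11. The groups overlapped, and a second probe set of Col5a1 with a nearly equal mean gave the opposite sign, -0.14 ± 0.13. Averaging both probe sets left 0.01, so the array does not settle a direction for this gene. Col5a2 stood at 8.001, 7.873 and 8.014 in Balb/cBy livers, against 8.167, 8.061 and 8.102 in Balb/c livers, a difference of -0.15 ± 0.09 with a limma p of 0.142 before adjustment. Its groups did not overlap, with a gap of 0.05 between them. Col5a3 followed at -0.11 ± 0.09.

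The other fibrillar genes are chiefly cartilage or developmental chains. Col2a1 gave -0.02, Col11a1 -0.11, Col11a2 -0.09, Col24a1 -0.02 and Col27a1 -0.07. None of these had groups that did not overlap. Col11a1, Col11a2 and Col24a1 had mean levels at or under 8.02, the 95th percentile of 1105 olfactory receptor genes, which liver is not thought to use. That level is used here as a stand-in for background: 30 of the 44 collagens lay above it and 14 at or under it, where a difference may not be told from noise of the probes. Col5a2, with a mean of 8.04 over the 6 arrays, lay just above that level.

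**Figure D2:**
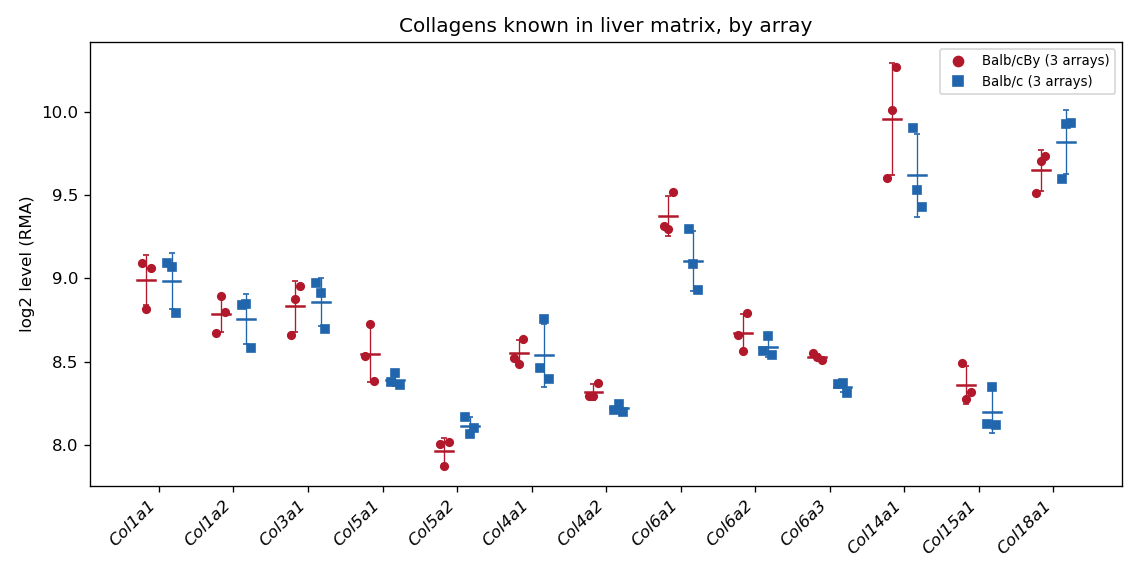
RMA level (log2, vertical axis) of the collagens known in liver matrix in each array, with 3 Balb/cBy points left of 3 Balb/c points for each gene, horizontal bars at the group means and whiskers of 1 SD to either side (n = 3). The Balb/cBy and Balb/c points of Col1a1, Col1a2 and Col3a1 overlap, while those of Col6a3 are 8.51 or more in Balb/cBy and 8.37 or less in Balb/c.

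Type VI chains had the highest class median, 0.12, with 5 of 6 genes above 0, although no member passed the test. Col6a1, Col6a2 and Col6a3 encode the classical heterotrimer, while Col6a4, Col6a5 and Col6a6 encode chains that can take the place of the alpha-3 chain. Col6a1 stood at 9.31, 9.30 and 9.52 in Balb/cBy livers, against 9.30, 9.09 and 8.93 in Balb/c livers. The groups were parted only in the third decimal, by 0.001, between Balb/cBy replicate 2 and Balb/c replicate 1. The difference was 0.27 ± 0.12, with a 95% interval of -0.01 to 0.55. A second, dimmer probe set of Col6a1 gave 0.12 ± 0.18 with overlapping groups.

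Col6a3 varied little within groups, at 8.55, 8.53 and 8.51 in Balb/cBy livers, against 8.36, 8.37 and 8.31 in Balb/c livers. The gap between the groups, 0.14, exceeded the spread within either one, with means of 8.53 ± 0.02 in Balb/cBy and 8.35 ± 0.03 in Balb/c (SD, n = 3 each). The difference was 0.18 ± 0.08, or 1.13-fold, with an unadjusted limma p of 0.0637. Without limma's moderation, which pulls a small spread toward that of other probe sets, this p was 0.00126, and the adjusted p stayed at 0.999. Col6a2 measured 8.66, 8.57 and 8.79 in Balb/cBy livers and 8.56, 8.65 and 8.54 in Balb/c livers, a difference of 0.09 ± 0.10 with overlapping groups.

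Col6a5 stood at 8.21, 8.07 and 8.24 in Balb/cBy livers, against 8.03, 8.07 and 7.95 in Balb/c livers, a difference of 0.16 ± 0.09. The groups overlapped at their edges. Col6a4 gave 0.01 ± 0.10 and lay under the olfactory level, and Col6a6 gave -0.07 ± 0.14. As a mean of the 6 genes on each array, type VI chains were at 8.52, 8.39 and 8.54 in Balb/cBy livers, against 8.43, 8.42 and 8.29 in Balb/c livers, so Balb/cBy replicate 2 lay within the Balb/c values.

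The promoters of Col6a1 and Col6a3 are shown because these chains had the smallest unadjusted p-values of the family. The sequences are RefSeq's for GRCm38.p6, 300 bases from 250 before to 50 after the annotated start, 5′ to 3′ on the strand of the gene. Col6a1 is on the minus strand at chr10:76725995-76726294 and Col6a3 on the minus strand at chr1:90843922-90844221. Neither holds any of the 3 motifs searched, a CCAAT box (CCAAT), a GC box (GGGCGG) or a TATA box (TATAAA), on either strand, so no letters are in capitals.
Col6a1: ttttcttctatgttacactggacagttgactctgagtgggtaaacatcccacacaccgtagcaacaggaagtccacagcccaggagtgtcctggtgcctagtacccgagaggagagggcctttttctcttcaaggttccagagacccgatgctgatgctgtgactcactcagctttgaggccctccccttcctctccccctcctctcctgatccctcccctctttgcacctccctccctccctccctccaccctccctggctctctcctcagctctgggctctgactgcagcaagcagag
Col6a3: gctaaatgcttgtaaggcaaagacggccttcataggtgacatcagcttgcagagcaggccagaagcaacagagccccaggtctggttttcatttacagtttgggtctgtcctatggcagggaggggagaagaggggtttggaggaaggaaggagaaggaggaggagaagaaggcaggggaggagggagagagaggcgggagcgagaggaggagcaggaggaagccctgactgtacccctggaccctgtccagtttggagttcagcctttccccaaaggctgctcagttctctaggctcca

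A promoter window was found for 35 of the 44 collagen genes. A CCAAT box stood in 13 of them (37.1%), against 41.1% of the 27025 genes with a window, and TATAAA stood in 5 (14.3%), against 15.7%. A GC box stood in 22 collagen windows (62.9%), against 38.2% of all genes, a difference that was not tested. These are matches of letters on both strands and describe no use of the site. Col1a2, the type I chain described above, holds 2 CCAAT boxes and 2 GC boxes, and is printed as the fibrillar example, with the motif letters in capitals (ATTGG is CCAAT on the other strand). It lies on the plus strand at chr6:4505368-4505667.
Col1a2: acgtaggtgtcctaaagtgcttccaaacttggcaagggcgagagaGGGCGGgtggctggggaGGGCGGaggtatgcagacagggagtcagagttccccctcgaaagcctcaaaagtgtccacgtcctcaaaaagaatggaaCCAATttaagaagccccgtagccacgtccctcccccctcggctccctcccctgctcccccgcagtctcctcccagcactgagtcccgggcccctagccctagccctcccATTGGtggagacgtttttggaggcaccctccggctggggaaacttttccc

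Basement membrane chains, all of type IV, had a median of -0.09 with 2 of 6 genes above 0. The median was -0.03 without Balb/c replicate 2. Col4a1 and Col4a2, the chains of the ubiquitous type IV network that also lines liver vessels, gave differences above 0, and Col4a3 to Col4a6, the chains better known from kidney and other specialised membranes, gave differences below 0. Col4a1 stood at 8.52, 8.49 and 8.64 in Balb/cBy livers, against 8.46, 8.75 and 8.40 in Balb/c livers, a difference of 0.01 ± 0.12. Over 16 alternative settings of the analysis this difference ran from -0.06 to 0.12 and changed sign in 5, so its direction is not settled. Balb/c replicate 2 was the highest array and Balb/c replicate 3 the lowest, so the spread lay within 1 substrain.

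Col4a2 stood at 8.29, 8.29 and 8.37 in Balb/cBy livers, against 8.21, 8.25 and 8.20 in Balb/c livers. The groups did not overlap, with a gap of 0.05, and the difference was 0.10 ± 0.08, or 1.07-fold, with an unadjusted limma p of 0.268. Col4a3, Col4a4 and Col4a5 gave -0.11 each, and Col4a6 gave -0.07. All of these had overlapping groups, and Col4a3 and Col4a4 lay under the olfactory level.

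Col4a1 and Col4a2 lie head to head and are read outward from a shared promoter region, and their windows are shown for that reason. The starts used for the windows are 21 bases apart, each inside the annotated span of the other gene, and the windows share 78 bases. Col4a1 is on the minus strand at chr8:11312777-11313076 and Col4a2 on the plus strand at chr8:11312555-11312854, in GRCm38.p6. Capitals mark CCAAT and GC boxes on either strand (CCGCCC is the GC box on the other strand).
Col4a1: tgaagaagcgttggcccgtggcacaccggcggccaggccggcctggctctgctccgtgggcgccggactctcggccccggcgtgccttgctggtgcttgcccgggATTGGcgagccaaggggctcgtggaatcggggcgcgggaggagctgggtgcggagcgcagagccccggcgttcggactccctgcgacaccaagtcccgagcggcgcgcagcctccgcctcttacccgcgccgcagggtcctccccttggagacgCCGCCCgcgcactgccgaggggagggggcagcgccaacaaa
Col4a2: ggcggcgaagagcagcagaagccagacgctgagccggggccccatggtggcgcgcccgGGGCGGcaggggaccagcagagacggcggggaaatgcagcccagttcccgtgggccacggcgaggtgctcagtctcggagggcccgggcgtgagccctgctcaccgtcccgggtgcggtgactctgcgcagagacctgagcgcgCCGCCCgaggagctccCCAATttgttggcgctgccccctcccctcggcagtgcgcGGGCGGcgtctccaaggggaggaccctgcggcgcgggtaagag

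The Col4a1 window holds 1 CCAAT box and 1 GC box, and that of Col4a2 holds 1 CCAAT box and 3 GC boxes. The GC box of Col4a1 lies in the shared bases and is 1 of those 3, read on the other strand. Across the 6 arrays the levels of Col4a1 and Col4a2 had a Pearson r of 0.44 (exact permutation p = 0.411) and a Spearman rho of 0.66 (exact permutation p = 0.175). These p-values came to 0.523 and 0.306 after adjustment over the 14 pairs of chains described below. Without the 2 arrays farthest from the median of Col4a1 the r was 0.87.

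FACIT collagens had a median of -0.05 with 4 of 9 genes above 0, and held both the highest and the lowest difference of the family. Col14a1, a chain that binds to fibril surfaces and is also made by stellate cells, stood at 9.60, 10.01 and 10.27 in Balb/cBy livers, against 9.90, 9.53 and 9.43 in Balb/c livers. Balb/cBy replicate 1 lay below Balb/c replicate 1, so the groups overlapped. The difference was 0.34 ± 0.19, or 1.27-fold, with a 95% interval of -0.09 to 0.77 and an unadjusted limma p of 0.108. It was 0.52 without Balb/cBy replicate 1 and 0.19 without Balb/cBy replicate 3, both above 0.

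Col12a1, a close relative of Col14a1, measured 7.65, 7.67 and 7.51 in Balb/cBy livers and 7.49, 7.54 and 7.34 in Balb/c livers. Its difference was 0.16 ± 0.10 with overlapping groups, at levels under that of the olfactory genes. The type IX chains, partners of cartilage type II fibrils, all gave values below 0, with -0.14 for Col9a1, -0.15 for Col9a2 and -0.17 for Col9a3. Col9a1 lay under the olfactory level, and Col9a3, with a mean of 8.03, lay just above it. Col9a3 stood at 8.02, 7.76 and 8.04 in Balb/cBy livers, against 8.13, 8.07 and 8.13 in Balb/c livers, a difference of -0.17 ± 0.10. Its groups did not overlap, with a gap of 0.03, and its unadjusted limma p was 0.136. Col16a1 gave -0.08, Col19a1 -0.05, Col20a1 0.05 and Col22a1 0.04, each with overlapping groups.

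The multiplexins, which carry heparan or chondroitin sulfate chains in basement membrane zones, gave opposite signs. Col15a1 stood at 8.49, 8.27 and 8.32 in Balb/cBy livers, against 8.12, 8.35 and 8.12 in Balb/c livers, a difference of 0.16 ± 0.11. Col18a1, the source of endostatin and a collagen that hepatocytes make, stood at 9.51, 9.71 and 9.74 in Balb/cBy livers, against 9.60, 9.93 and 9.93 in Balb/c livers, a difference of -0.17 ± 0.12. In both genes 1 Balb/c array lay among the Balb/cBy values, and the unadjusted limma p-values were 0.170 and 0.203.

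Transmembrane collagens, which span the cell membrane and can be shed, had a median of -0.05 with 1 of 4 genes above 0. Col25a1 stood at 8.03, 8.19 and 8.02 in Balb/cBy livers, against 7.92, 7.97 and 7.93 in Balb/c livers, a difference of 0.13 ± 0.09 without overlap, with a mean just under the olfactory level. Col23a1 stood at 8.63, 8.57 and 8.37 in Balb/cBy livers, against 8.67, 8.72 and 8.61 in Balb/c livers, a difference of -0.14 ± 0.10 with overlap. Col13a1 gave -0.08 and Col17a1, a hemidesmosome chain of skin, -0.03.

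The short-chain network collagens gave 3 of 3 values below 0, at -0.07 for Col8a1, -0.02 for Col8a2 and -0.12 for Col10a1. Col8a1 and Col8a2 build the lattice of vascular type VIII collagen, and Col10a1 is a chain of hypertrophic cartilage that lay under the olfactory level. Col7a1, the anchoring fibril chain of skin, gave 0.03 ± 0.09. Col26a1 gave 0.04 and Col28a1 -0.05. No gene of these classes had groups that did not overlap.

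In all but 6 collagens the arrays did not sort by substrain. The highest of the 6 values fell on Balb/c replicate 2 in 14 genes, and the lowest fell on Balb/c replicate 3 in 18 genes. The mean over the 44 genes was 8.36, 8.29 and 8.33 in Balb/cBy livers, against 8.34, 8.39 and 8.27 in Balb/c livers, so its highest and lowest array were both Balb/c. Balb/cBy replicate 1 and Balb/c replicate 3 also had the lowest array weights in limma, at 0.471 and 0.635, and Balb/cBy replicate 1 had the highest olfactory median, 6.04 against 5.89 to 5.99 on the other arrays. The part of these array-wide shifts in any collagen value was not tested. The plot of collagen genes array by array shows the deviations.

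**Figure D3:**
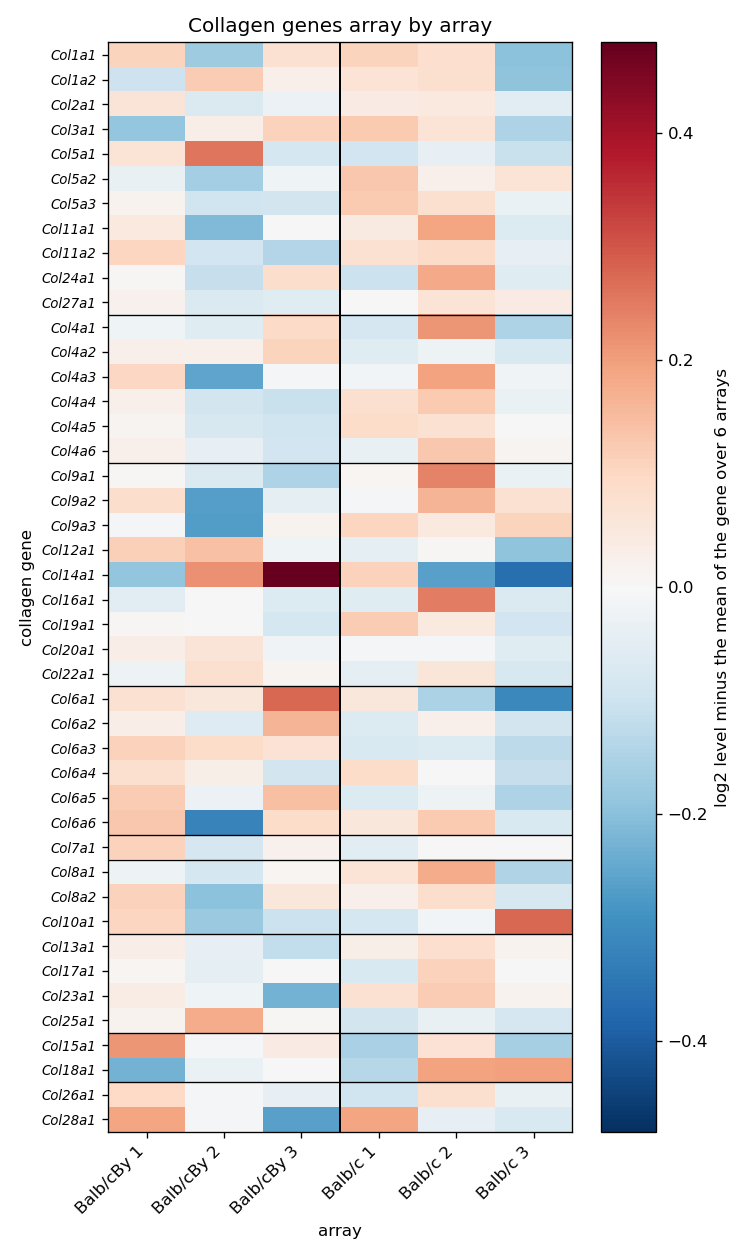
Level of each collagen gene on each array minus that gene's mean over the 6 arrays (log2, colour), with genes in rows by class and arrays in columns, Balb/cBy left of the line and Balb/c right of it. Balb/c replicate 2 is mostly above the mean and Balb/c replicate 3 mostly below it, with average deviations of 0.06 and -0.06.

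The levels of partner chains of 1 collagen type were compared across arrays, as were those of Col1a1 and Col3a1. Types I and III share fibrils but no helix. Of 14 pairs of chains, 13 had a Pearson r above 0, from 0.25 for Col1a1 with Col1a2 to 0.81 for Col9a2 with Col9a3. Without the 2 arrays farthest from the median of the first chain, 4 of these pairs fell below 0 and 9 stayed above it. The 4 were Col1a1 with Col1a2 (-0.43), Col1a1 with Col3a1 (-0.49), Col6a1 with Col6a2 (-0.47) and Col9a2 with Col9a3 (-0.03). Their positive values did not hold without those arrays. Dropping 2 arrays also narrows the range of the first chain, which can itself change an r. The exception, Col5a1 with Col5a2, had an r of -0.88 (exact permutation p = 0.0361) and a rho of -0.89 (exact permutation p = 0.0333). After adjustment over the 14 pairs these p-values were 0.277 and 0.288. Without the 2 arrays farthest from the median of Col5a1 the r was -0.34, so the relation was weaker without those arrays. With the substrain means removed it was -0.82. This relation was also read from the brighter Col5a1 probe set alone. The second Col5a1 probe set, whose difference had the opposite sign, was not compared with Col5a2. No pair passed after adjustment, and all pairs share the same 6 arrays with their array-wide shifts. The r values also span both substrains. With the substrain means removed, Col6a2 with Col6a3 went from 0.50 to 0.04 and Col9a1 with Col9a3 from 0.28 to -0.22. Col4a1 with Col4a2 rose from 0.44 to 0.76. Among 8 pairs of neighbouring collagen genes in the RefSeq table, 7 had differences of the same sign, such as Col6a2 with Col6a1 and Col4a1 with Col4a2. Col6a6 and Col6a5, at -0.07 and 0.16, did not. In some alternative settings the signs of Col4a1, Col3a1, Col6a4 and Col6a6 changed.

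The genes that fold, process, bind or break down collagen, inhibit its breakdown or act in its induction were read from 5 lists. These lists were chosen from background knowledge, but with earlier results of these data known, and 74 of their genes were measured. A difference above 0 was found in 52 (70.3%) and below 0 in 22, against 48.99% above 0 over all tested probe sets, and 0 passed the adjusted limma test. At an unadjusted limma p under 0.05 there were 5: P4ha1, Ddr2, Mmp12, Timp3 and Thbs1, all higher in Balb/cBy. That is 6.76% of the lists, against 3.82% of all tested probe sets, where such values also lay more often above 0 (2.64%) than below it (1.18%). The plot of collagens, pathway lists and cell type markers sets these lists side by side.

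Of the genes that act in the endoplasmic reticulum, 13 of 18 were above 0, with a median of 0.03. P4ha1, the catalytic subunit of the prolyl 4-hydroxylase that stabilises the helix, stood at 9.12, 9.75 and 10.06 in Balb/cBy livers, against 9.29, 8.95 and 8.68 in Balb/c livers. The difference was 0.68 ± 0.24 with an unadjusted limma p of 0.0241, and Balb/cBy replicate 1 lay below Balb/c replicate 1. Serpinh1, the collagen chaperone HSP47, gave 0.25 ± 0.16 and Crtap, a partner in prolyl 3-hydroxylation, 0.19 ± 0.17, both with overlap. Without Balb/c replicate 3 they were 0.10 and 0.02. P3h2, a prolyl 3-hydroxylase, gave 0.24 ± 0.11 without overlap.

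Enzymes that trim procollagen or cross-link it gave 8 of 13 above 0 and a median of 0.01. Bmp1, the procollagen C-proteinase, gave 0.17 ± 0.12, and Loxl1, a lysyl oxidase, 0.15 ± 0.10. Tll1, a relative of Bmp1, and Adamts3, a procollagen N-proteinase, gave -0.11 and -0.09. Collagen receptors gave 8 of 10 above 0, with a median of 0.07. Ddr2, a receptor tyrosine kinase for fibrillar collagen, stood at 8.46, 8.64 and 8.62 in Balb/cBy livers, against 8.28, 8.44 and 8.30 in Balb/c livers, a difference of 0.24 ± 0.10 with an unadjusted limma p of 0.0412 and no overlap. Lair1, an inhibitory receptor of leukocytes, gave 0.24 ± 0.12, and the integrin chains Itga1 and Itgb1 gave 0.17 and 0.18, which were 0.04 and -0.03 without Balb/c replicate 2.

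Genes of collagen breakdown and its inhibitors gave 9 of 13 above 0, with a median of 0.10. Enzymes and their inhibitors are counted together here, so the count gives no direction for breakdown. Mmp12, the macrophage metalloelastase, stood at 7.81, 7.92 and 7.97 in Balb/cBy livers, against 7.51, 7.45 and 7.67 in Balb/c livers. The difference was 0.36 ± 0.10 with an unadjusted limma p of 0.00686 and no overlap, at a level under that of the olfactory genes. Timp3, an inhibitor of metalloproteinases held in the matrix, gave 0.38 ± 0.15, and Timp4 gave 0.39 ± 0.21, which was 0.17 without Balb/cBy replicate 2. Mmp3, a stromelysin, gave -0.17 ± 0.09 without overlap.

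The list of inducers of collagen transcription, chiefly of the TGF-beta and PDGF pathways, gave 14 of 20 above 0 and a median of 0.12. It also holds inhibitors of these signals, such as Skil, counted together with the inducers, so the count gives no direction for induction. Thbs1, a matrix protein that can activate latent TGF-beta, stood at 7.73, 8.57 and 8.19 in Balb/cBy livers, against 7.60, 7.67 and 7.60 in Balb/c livers, a difference of 0.54 ± 0.19 with an unadjusted limma p of 0.0223 and no overlap. Smad4, the shared signal transducer, gave 0.18 ± 0.09 without overlap, and the ligand Tgfb3 and the feedback regulator Skil gave 0.25 ± 0.14 and 0.42 ± 0.23 with overlap. Ccn2, a target of TGF-beta also called connective tissue growth factor, gave 0.52 ± 0.33, and Tgfb1 itself -0.07 ± 0.24. Single arrays weighed on these values: Ccn2 was 0.15 without Balb/cBy replicate 3, Thbs1 was 0.33 and Skil 0.15 without Balb/cBy replicate 2, and Tgfb1 ran from -0.28 to 0.17 as each array was left out.

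**Figure D4:**
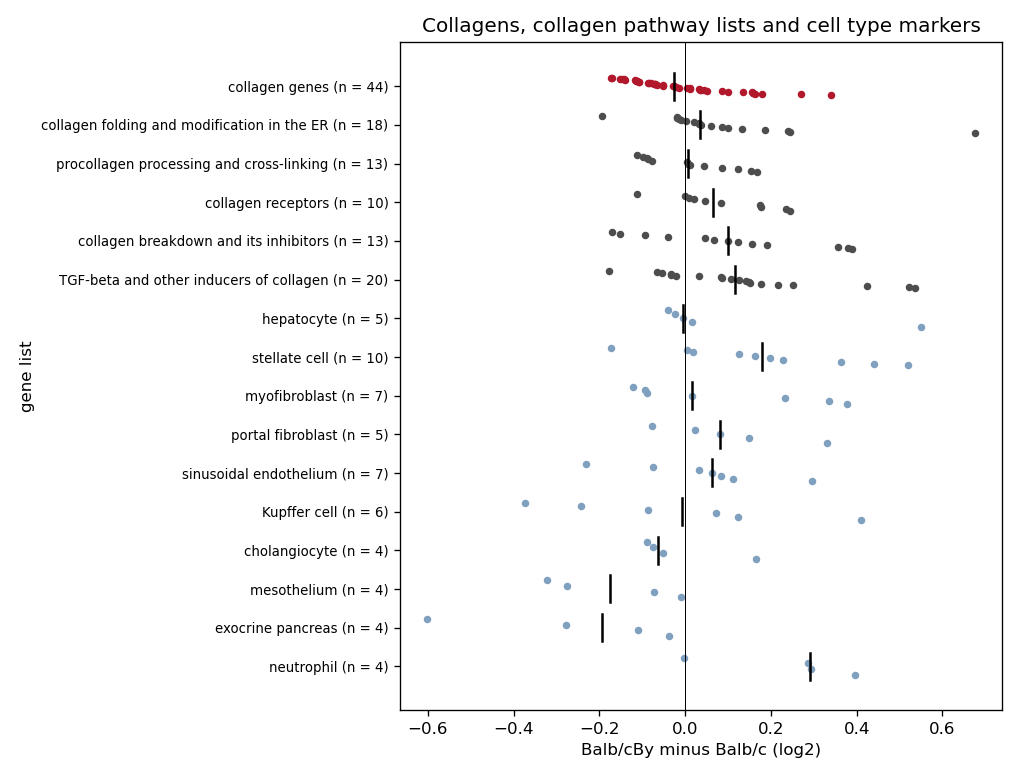
Differences of single genes, Balb/cBy minus Balb/c (log2, horizontal axis), for the collagens, the 5 collagen pathway lists and the 10 cell type marker lists, with each point 1 gene and each bar the median of a list. The collagen median is -0.03 and the median of stellate cell markers is 0.18. That of the list of inducers, which also holds inhibitors of the same signals, is 0.12.

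Markers of the cells that make or hold collagen were read beside these values. In RNA of whole liver, fewer cells of a type and less RNA per cell cannot be told apart. Stellate cell markers were all above the olfactory level, and 9 of 10 had a difference above 0, with a median of 0.18. The log2 of their summed level ran from 13.25 to 13.76 in Balb/cBy livers and from 12.97 to 13.55 in Balb/c livers, with overlap. Rgs5, a pericyte and stellate cell regulator, gave 0.52 ± 0.22 with an unadjusted limma p of 0.0435. The matrix protein Ecm1 gave 0.44 ± 0.23, the secreted glycoprotein Reln 0.36 ± 0.21 and the receptor Ngfr -0.17 ± 0.13, each with overlapping groups.

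By array, the mean of the 10 stellate cell markers was 9.53, 9.74 and 9.93 in Balb/cBy livers, against 9.78, 9.48 and 9.37 in Balb/c livers. Col14a1 was likewise highest on Balb/cBy replicate 3 and lowest on Balb/c replicate 3, with Balb/c replicate 1 above Balb/cBy replicate 1 in both. P4ha1 shared these features. The mean of the myofibroblast markers did too, at 8.21, 8.22 and 8.46 in Balb/cBy livers, against 8.42, 8.11 and 8.08 in Balb/c livers. These features were therefore not particular to the stellate cell list. The part of stellate cell or myofibroblast content in the values of Col14a1 and P4ha1 was not tested.

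Myofibroblast markers gave 4 of 7 above 0 and a median of 0.02, with log2 sums of 11.18 to 11.51 in Balb/cBy livers and 11.01 to 11.37 in Balb/c livers. Tagln, a smooth muscle actin-binding protein, stood at 8.51, 8.67 and 8.76 in Balb/cBy livers, against 8.50, 8.31 and 8.12 in Balb/c livers, a difference of 0.34 ± 0.12 with an unadjusted limma p of 0.0255 and no overlap. Acta2, smooth muscle actin and the standard marker of the activated stellate cell, gave 0.23 ± 0.13 with overlap, and Cnn1, a calponin of smooth muscle, -0.12 ± 0.12 with overlap. Postn, a matrix protein of activated fibroblasts, ranged from 8.06 to 9.38 in Balb/cBy livers and from 7.87 to 8.97 in Balb/c livers, and its difference of 0.38 was 0.03 without Balb/cBy replicate 3.

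Other cell types gave medians of 0.08 for portal fibroblasts (4 of 5 genes above 0), 0.06 for sinusoidal endothelium (5 of 7), -0.01 for Kupffer cells (3 of 6), -0.005 for hepatocytes (2 of 5), -0.06 for cholangiocytes (1 of 4) and 0.29 for neutrophils (3 of 4). Mesothelium gave -0.17 (0 of 4) and exocrine pancreas -0.19 (0 of 4), the pancreatic genes with log2 sums of 10.12 to 10.25 in Balb/cBy livers and 10.24 to 10.93 in Balb/c livers. Of the neutrophil, cholangiocyte and mesothelium markers, 1 of 4 each lay above the olfactory level. The neutrophil marker above it, S100a9, gave -0.002, so the neutrophil median rested on dimmer genes. Ctrb1, a pancreatic protease precursor, read 8.19, 8.25 and 8.34 in Balb/cBy livers, against 8.43, 8.45 and 9.69 in Balb/c livers, with the high value in Balb/c replicate 3. The array with that value is the one on which collagens were most often lowest, and the part of pancreatic RNA in the collagen values was not tested.

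The miR-29 family, known to bind collagen mRNAs, was looked up after the collagen values were seen. Its mature forms are shown because they share 1 seed, bases 2 to 8, given in capitals. The sequences are RefSeq's, with positions in GRCm38.p6. That of miR-29a is chr6:31062673-31062694 on the minus strand. On the plus strand lie miR-29b, here from the gene Mir29b-2, at chr1:195037091-195037113, and miR-29c at chr1:195037600-195037621.
miR-29a-3p: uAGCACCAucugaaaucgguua
miR-29b-3p: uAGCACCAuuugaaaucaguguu
miR-29c-3p: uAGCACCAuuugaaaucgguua

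The array holds probe sets for precursors of this family, of which Mir29a and Mir29b-1 were read. Mir29b-1 is a different gene from Mir29b-2, whose position is given above. No values are given here for Mir29b-2 and Mir29c. Mir29a stood at 4.67, 5.40 and 4.79 in Balb/cBy livers, against 4.80, 4.38 and 4.64 in Balb/c livers, a difference of 0.34 ± 0.20. Mir29b-1 stood at 3.71, 4.10 and 4.23 in Balb/cBy livers, against 3.81, 3.72 and 3.68 in Balb/c livers, a difference of 0.28 ± 0.14. Both overlapped between the groups and lay under the olfactory level, and a whole-transcript array does not measure the mature form.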

How the data were processed

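Liver RNA of 6 male mice, 3 Balb/cBy and 3 Balb/c, was hybridised to 1 array each. The deposited RMA values, on a log2 scale, were made with RMA (background correction, quantile normalization, probe summary), per the submitters' processing notes. No source used here gives the software version or genome build. RMA pulls low values together, which understates differences of dim genes. In place of a detection measure, the 95th percentile of 1105 olfactory receptor genes stood in for background.

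Of 41345 probe sets, 23521 carry 1 symbol in the platform annotation and were tested, 1814 carry several symbols and 16010 are unlisted. A model with the substrain as its term was fitted to every tested probe set with limma 3.58.1 (R 4.3.3) and moderated by empirical Bayes. P-values are two-sided and were adjusted by Benjamini-Hochberg across the tested probe sets, with 0.05 as threshold. The fit was checked on simulated arrays. Correlations, sequences and plots used Python 3.11.15, scipy 1.17.1 and matplotlib 3.10.9. Arrays of a group are biological replicates, per the labels. The number of arrays limits the precision, and 3 against 3 cannot reach an exact permutation p under 0.1, so single genes rest on limma's model. Same-numbered arrays did not deviate together (correlations of -0.32, -0.19 and -0.23), and the labels state no pairing. Deviations of differently numbered arrays were not compared, so these correlations cannot exclude a pairing.

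The collagens, lists and rules were chosen with earlier results of these data known. The text names all collagens, neighbouring collagen pairs and Acads. Of the pathway, stellate cell and myofibroblast lists it names up to 4 members by smallest p. Of the other marker lists it names few genes (Alb, Ctrb1, Gas6 and S100a9), not always those of smallest p. Tgfb1, Ccn2 and the miR-29 precursors were added after their values were seen. The 16 alternatives changed the moderation, array weights, replicate block, normalization, probe sets tested, averaging, a filter on dim probe sets and the arrays used.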

Additional observations from a re-analysis of the deposited data

How the results depend on the processing

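The count of 0 collagen genes past the adjusted threshold held under all 16 alternatives, 1 of which (brighter probe sets alone) covered 30 of the 44, and between 0 and 5 of the differences run in each changed sign. Over all tested probe sets, 31 passed with array weights and 16 without the 2 arrays of lowest weight, and leaving out each replicate gave 0 to 4, with 4 without Balb/cBy replicate 1 and 2 without Balb/c replicate 3. None of these was a collagen. Without the 2 arrays of lowest weight the medians were -0.091 for all collagens, -0.127 for FACITs and -0.098 for fibrillar collagens. Leaving out each replicate, they ran from -0.068 to 0.011 for all collagens, from -0.110 to 0.024 for FACITs and from -0.091 to -0.0048 for fibrillar collagens, from -0.12 to -0.03 for basement membrane collagens, from -0.079 to -0.020 for transmembrane collagens and from -0.087 to 0.0077 for short-chain collagens. With brighter probe sets alone the transmembrane median was -0.112. The type VI median ran from 0.09 to 0.16 over the replicates left out. Of 62 pathway and marker genes, 10 changed sign with 1 array left out and 51 moved by over 1.5 times. Gas6, a portal fibroblast marker at 0.33, gave -0.13 without the 2 arrays of lowest weight. At an unadjusted p under 0.05 there were 2 collagens without moderation (Col6a3 and Col4a2), 3 with array weights (Col14a1, Col6a1 and Col23a1), 1 with median centring (Col6a3), 1 without the 2 arrays of lowest weight (Col14a1) and 0 to 2 with a replicate left out (Col14a1 and Col6a1). With the replicate block, the collagen median was -0.03 and 0 collagens passed, although the labels state no pairing behind that block. The causes were not tested. RMA's pull on dim genes limits the 14 collagens at or under the olfactory level.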
